A study of Mus musculus with 8 samples.

Results

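The Wnt ligands, Frizzled receptors and secreted Wnt inhibitors were read in 8 mouse tumours, 1 array each. The members are all genes whose symbol is Wnt, Fzd, Sfrp or Dkk followed by digits and at most a single letter. They number 37 of 22180 measured genes, namely 19 Wnt, 10 Fzd, 4 Sfrp and 4 Dkk genes. Among probe sets annotated to a single symbol, the one with the highest mean stands for the gene, and 36 members had 1 such probe set.

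All 8 tumours form 1 group with no control. They grew from mouse neural crest cells transduced with N-Myc, a pool of p53+/- and p53-/- cells (N-Myc; p53mixed). About 10000 cells were placed under the skin of nude or C57Bl/6 mice 48 hours after infection, and the primary tumours were removed after about 50 days. The labels do not tie a tumour to a host strain, a p53 genotype, a separate culture or a separate animal, so p-values measure only the spread between these samples, which may be technical. A C57Bl/6 host has T cells that a nude host lacks, and both keep their own vessels, fibroblasts and macrophages.

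Wnt proteins are secreted, lipid-modified ligands. They bind the cysteine-rich domain of Frizzled receptors together with a co-receptor, Lrp5 or Lrp6 in the branch that stabilises beta-catenin, Ror or Ryk in others. Sfrp proteins carry a Frizzled-like domain and bind Wnts outside the cell, while Dkk1, Dkk2 and Dkk4 bind Lrp5 and Lrp6. In the embryo, Wnt signals from the dorsal neural tube take part in neural crest induction and in the choice between sensory, pigment and sympathetic fates.

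The 8 arrays had medians of 5.63 to 5.75 (log2). The background of an array was the 95th percentile of its probe sets for olfactory, vomeronasal and bitter taste receptor genes, and it lay between 5.45 and 5.66. All 13 measured sympathoadrenal markers were above it. Marker genes of other cells were also above background, with 13 of 15 fibroblast and pericyte, 12 of 14 endothelial, 13 of 14 macrophage, 6 of 10 glial and crest progenitor, 8 of 12 skeletal muscle and 2 of 7 keratinocyte genes. By the same test 57.3% of all genes were above background, so such a count alone does not show that a cell type was present. Mycn, whose probe set need not read the introduced N-Myc, was at 6.65 ± 0.34 (SD, n = 8) and lowest in tumour 6 (5.99). In bulk tumours, fewer cells of a type and less RNA per cell cannot be told apart.

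The tumours had signal for a minority of the ligands. The share above background was below that of all genes in the Wnt, Fzd and Dkk families. It was above that share for Sfrp, a family of 4 measured genes. Against array background, limma called 16 of 37 members, where it called 57.3% of all genes. By family the count was 7 of 19 Wnt, 5 of 10 Fzd, 3 of 4 Sfrp and 1 of 4 Dkk genes. Of the 37 members, 13 were above background in every tumour. Dkk2, Fzd10, Wnt8a, Wnt8b, Wnt10b and Wnt16 were above it in no tumour. The count follows the background chosen, with 29 members called against the 90th percentile of the receptor probe sets and 4 against the 99th. Levels of different genes are not compared here, since each probe set has its own response.

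**Figure D1:**
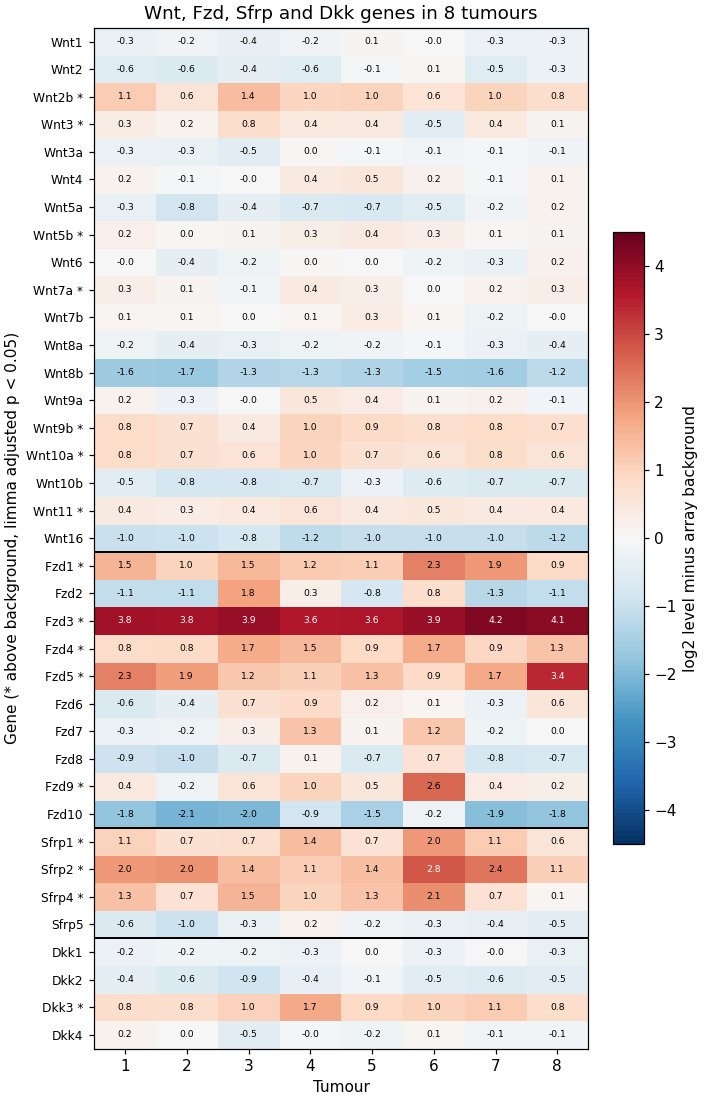
Log2 level minus array background for the 37 members (rows, by family) in the 8 tumours (columns), with the value printed in each cell and an asterisk for the 16 genes above background by limma. The Wnt rows are nearly even across tumours, and the Fzd and Sfrp rows differ between tumours, with 7 of 10 Fzd and 4 of 4 Sfrp genes highest in tumour 4 or 6, against 31.1% of all genes.

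The families differed in how far they varied between tumours. Of the 10 Fzd genes, 7 had an SD of at least 0.5 over the tumours, as had 2 of 4 Sfrp, 0 of 19 Wnt and 0 of 4 Dkk genes, against 7.52% of all genes. This threshold was chosen after the values were seen. Of the 7 Fzd genes, Fzd5 and Fzd9 were called above background, and Fzd2, Fzd6, Fzd7, Fzd8 and Fzd10 were not. The median SD was 0.60 for Fzd, 0.53 for Sfrp, 0.27 for Dkk and 0.21 for Wnt genes, against 0.20 for all genes. Among the 16829 genes whose mean lay within the range of the Fzd genes, the median SD was 0.22. Among the 8269 genes in the range of the Wnt genes it was 0.20. Several Fzd genes were high in the same tumours, so their SDs are not independent observations. Of the 16 members above background, 4 had such an SD, against 9.38% of all genes above background.

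**Figure D2:**
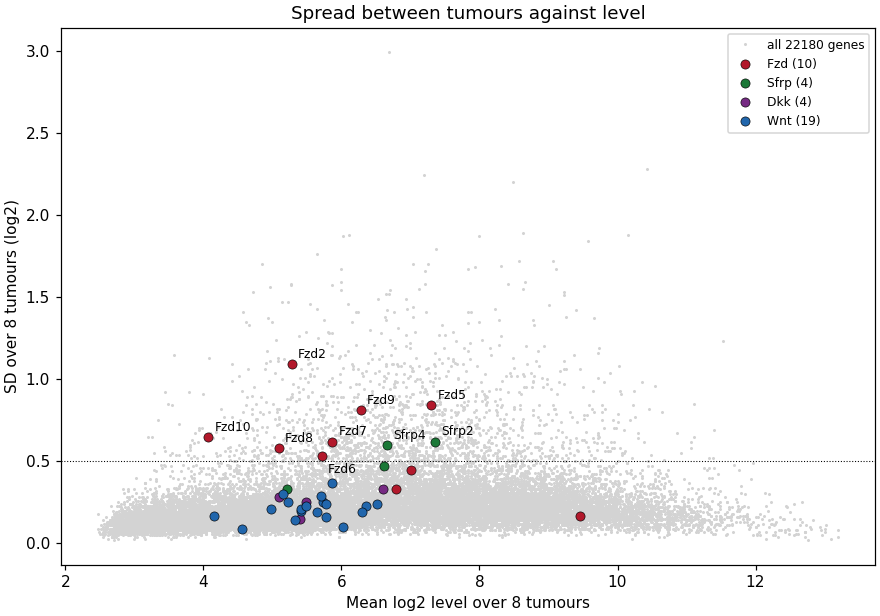
SD over the 8 tumours against mean log2 level, with all 22180 genes in grey and the members coloured by family. Fzd2 has the largest SD of the members (1.09), 7 Fzd and 2 Sfrp genes lie at or above the dotted line at 0.5, and all 19 Wnt genes lie below it.

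Wnt2b, Wnt3, Wnt5b, Wnt7a, Wnt9b, Wnt10a and Wnt11 were the ligands above background. Wnt2b, a ligand known from eye and lung development, had a lowest log2 level of 6.16, a median of 6.58 and a highest of 6.84. It stood 0.93 ± 0.09 (SE) above background (limma, adjusted p = 6.77e-07) and was above background in 8 of 8 tumours. Wnt9b, which acts in kidney tubule formation, ran from 5.87 in tumour 3 to 6.67 in tumour 4 with a median of 6.37, a mean of 0.77 ± 0.07 above background (limma, adjusted p = 3.96e-07). Wnt10a, a ligand of tooth and skin development, ran from 6.06 to 6.63 with a median of 6.32, 0.72 ± 0.06 above background (limma, adjusted p = 3.23e-07). The distance between the lowest and the highest tumour was 0.67 for Wnt2b, 0.80 for Wnt9b and 0.57 for Wnt10a.

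Wnt11, a ligand of the branch without beta-catenin, was nearly even, with a lowest level of 5.89, a median of 6.01 and a highest of 6.24 in tumour 4 (0.44 ± 0.05 above background, limma, adjusted p = 4.2e-06). Wnt5b, at 5.57 to 6.03, and Wnt7a, at 5.34 to 6.08, were closer to background, by 0.19 ± 0.06 and 0.18 ± 0.07 (limma, adjusted p = 0.0062 and 0.0186). Both were lowest in tumour 3. Wnt3, a ligand of the beta-catenin branch, was at 5.05 in tumour 6 and between 5.70 and 6.25 in the other tumours. Tumour 6 was therefore below the range of the others for Wnt3. The mean of Wnt3 was 0.28 ± 0.11 above background (limma, adjusted p = 0.0354). Leaving out tumour 1, 3, 4, 5 or 7 ended it, with means of 0.27, 0.20, 0.25, 0.26 and 0.25 (limma, adjusted p = 0.0648, 0.0982, 0.0761, 0.074 and 0.0769).

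The other 12 ligands were not called. Wnt1 and Wnt3a, the dorsal neural tube ligands of neural crest induction, had highest levels of 5.77 (tumour 5) and 5.71 (tumour 4) and means of 5.41 ± 0.20 and 5.41 ± 0.21 (SD, n = 8). Wnt5a, which signals through Ror2, ran from 4.82 in tumour 2 to 5.74 in tumour 8, and exceeded the background of its array in tumour 8 alone. Wnt4 averaged 0.16 ± 0.07 above background (limma, adjusted p = 0.0573). It passed the test without tumour 2, 3 or 7, with means of 0.19, 0.18 and 0.19 (limma, adjusted p = 0.0371, 0.0461 and 0.0369). Wnt6, Wnt7b and Wnt9a averaged -0.10, 0.06 and 0.12 relative to background, and Wnt2, Wnt8a, Wnt8b, Wnt10b and Wnt16 between -1.44 and -0.27.

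Many ligands had their highest and lowest values in the same tumours. Of the 19 Wnt genes, 12 were highest in tumour 4 or 5 and 11 were lowest in tumour 3. Of the 8269 genes whose mean lay in the range of the Wnt genes, 49.8% were highest in tumour 4 or 5 and 28.6% lowest in tumour 3. The background itself was highest in tumour 4 (5.66) and lowest in tumour 3 (5.45). All 7 measured keratinocyte markers were highest in tumour 5, among them Krt14 at 9.13 (4.82 to 5.29 elsewhere), and so were Wnt1, Wnt4, Wnt5b, Wnt7b, Wnt8a and Wnt10b. Of these Wnt genes only Wnt5b was called above background. The share of all genes highest in tumour 5 alone was not counted. The part of array background and of skin cells in the differences between Wnt levels was not tested.

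Wnt genes lie next to each other at 4 places in the GRCm38.p6 gene table. Wnt9b and Wnt3, neighbours on chromosome 11, were both above background. Of Wnt6 and Wnt10a on chromosome 1 only Wnt10a was called, and neither gene was called in the pairs Wnt3a and Wnt9a on chromosome 11 or Wnt10b and Wnt1 on chromosome 15.

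The receptors fell into even and uneven genes. Fzd3, which guides axons and neural tube closure and is expressed in the nervous system, was the most even Frizzled gene. Its lowest log2 level was 9.27, its median 9.40 and its highest 9.75 (SD 0.17), and it stood 3.86 ± 0.07 above background (limma, adjusted p = 1.13e-13). Fzd1 and Fzd4 were above background in every tumour. Fzd1 was at 7.80 and 7.51 in tumours 6 and 7 and at 6.45 to 7.15 in the others (1.43 ± 0.15 above background, limma, adjusted p = 1.12e-06). Fzd4, the receptor for norrin in retinal vessels, was at 7.21, 7.12 and 7.11 in tumours 6, 3 and 4, and at 6.45 to 6.86 in the others (1.20 ± 0.12 above background, limma, adjusted p = 6.76e-07). The ranges of these genes were 0.49 for Fzd3, 0.76 for Fzd4 and 1.35 for Fzd1 on the log2 scale.

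**Figure D3:**
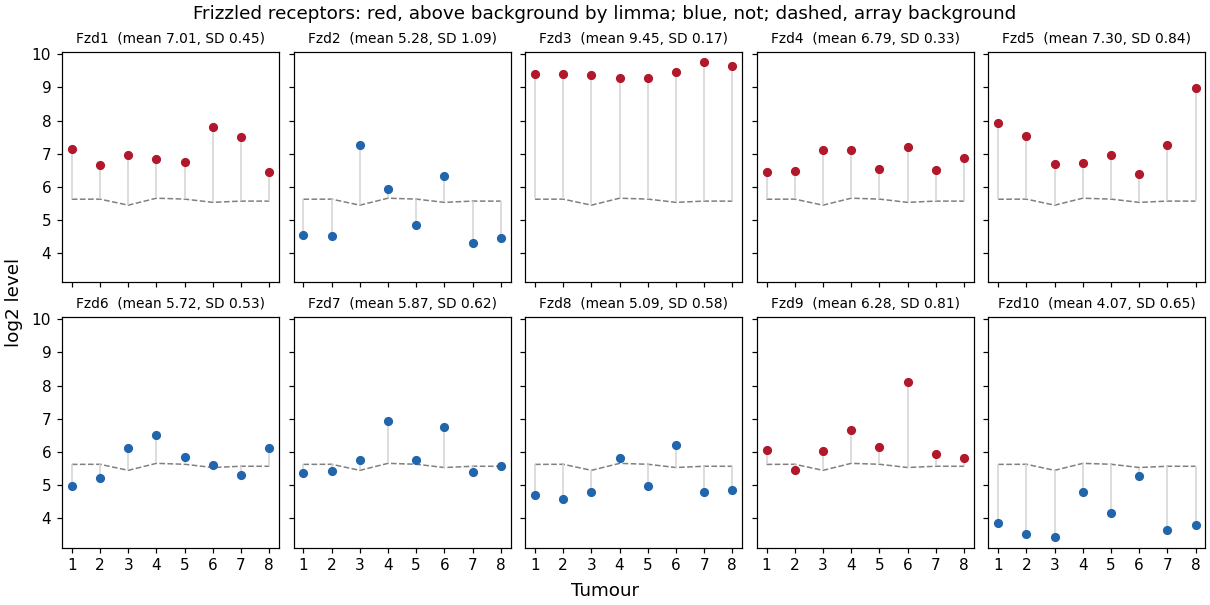
Log2 level (points) of each of the 10 Frizzled genes in the 8 tumours, with the array background as a dashed line and red points for genes above background by limma. Fzd3 is even at 9.27 to 9.75, Fzd5 peaks in tumour 8 at 8.98, Fzd9 in tumour 6 at 8.12 and Fzd2 in tumour 3 at 7.26, while Fzd7, Fzd8 and Fzd10 have their 2 highest values in tumours 4 and 6.

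Fzd5, a receptor of eye and gut development, was highest in tumour 8. It was at 7.91, 7.53, 6.68, 6.73, 6.95, 6.39, 7.27 and 8.98 in tumours 1 to 8, and stood 1.72 ± 0.26 above background (limma, adjusted p = 8.38e-05). Tumour 8 lay 1.92 above the mean of the other tumours on the log2 scale, and without it the SD of Fzd5 was 0.53, against 0.84 with it. Fzd9, a receptor known from hippocampal and blood cell precursors, was highest in tumour 6. It was at 6.07, 5.47, 6.03, 6.65, 6.16, 8.12, 5.93 and 5.82 in tumours 1 to 8. Tumour 6 lay 2.10 above the mean of the other tumours, and without it the SD was 0.36, against 0.81 with it. Fzd9 stood 0.70 ± 0.26 above background (limma, adjusted p = 0.0255), which missed the threshold when tumour 4 was left out (0.65, limma, adjusted p = 0.0581).

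The remaining Frizzled genes missed the detection test over the group, and each but Fzd10 exceeded background in some tumours. Fzd2, a receptor for Wnt5a, exceeded background in tumours 3, 6 and 4 (7.26, 6.34 and 5.93), and read 4.31 to 4.86 in the other tumours, below background. Fzd7, a receptor of mesenchyme and stem cells, was at 6.93 and 6.76 in tumours 4 and 6 and at 5.37 to 5.76 elsewhere. Fzd8 was at 6.20 and 5.81 in tumours 6 and 4 and at 4.60 to 4.97 elsewhere. Fzd6, which acts in hair patterning through planar polarity, was above background in 5 tumours, 4, 3, 8, 5 and 6, and reached 6.52 in tumour 4. Fzd10 was below background throughout, but its 2 highest values, 5.29 and 4.79, were also in tumours 6 and 4. These tumours were singled out after the values were seen. Of all genes, 31.1% were highest in tumour 4 or 6, and the share with both highest values there was not counted. Counted by tumour, 9 of 10 Fzd genes exceeded background in tumours 4 and 6, 8 in tumour 3, 7 in tumours 5 and 8, 5 in tumours 1 and 7, and 4 in tumour 2. Of all genes, 58.9% to 61.3% did so per tumour.

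Tumours 4 and 6 also had the 2 highest scores of glial and crest progenitor markers. The score, the mean of 6 marker genes above background each centred on its own mean, reached 2.02 and 1.16 in tumours 4 and 6, where the others lay at -1.07 to -0.01. Sox10, which defines crest and glial progenitors, was at 8.32 and 8.05 in tumours 4 and 6 and at 5.43 to 6.30 in the others. Erbb3, Fabp7 and Foxd3 also had their 2 highest values there. Pmp22 and Ednrb were highest in tumour 4, but not raised in tumour 6. They were at 7.55 and 6.77 in tumour 6, where tumours other than 4 and 6 ran from 6.46 to 8.43 and from 5.93 to 7.34. Of the 10 measured markers, S100b, Sox2, Gfap and Cdh19 were not above background over the group. The sympathoadrenal score stood at -2.04 and -0.02 in tumours 6 and 4, where the others lay at -0.27 to 0.99. For Fzd2, which was highest in tumour 3, the fibroblast and pericyte score of tumours 3, 6 and 4 was 0.62, 0.44 and -0.42. Their macrophage scores were 0.63, 0.38 and 0.17, the 3 highest of the group. The skeletal muscle score was highest in tumour 6 (1.58) and was -0.83 in tumour 4, and the endothelial score was highest in tumour 4 (0.61) and was 0.07 in tumour 6. The part of these cell types in the Frizzled and Sfrp values was not tested.

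The 250 bases before the start site of 4 of the uneven receptor genes are shown because their levels set tumours 4, 6 or 8 apart. They are from RefSeq (GRCm38.p6), 5′ to 3′ on the strand of the gene, and the start site follows the last base. Fzd7 lies at chr1:59481897-59482146 (plus strand), Fzd9 at chr5:135251048-135251297 (minus), Fzd10 at chr5:128600856-128601105 (plus) and Fzd5 at chr1:64737751-64738000 (minus). Capitals mark the Tcf/Lef core CTTTGAT, the Sox core ACAAAG, the Myc E-box CACGTG and the GC box GGGCGG, each on either strand.
Fzd7: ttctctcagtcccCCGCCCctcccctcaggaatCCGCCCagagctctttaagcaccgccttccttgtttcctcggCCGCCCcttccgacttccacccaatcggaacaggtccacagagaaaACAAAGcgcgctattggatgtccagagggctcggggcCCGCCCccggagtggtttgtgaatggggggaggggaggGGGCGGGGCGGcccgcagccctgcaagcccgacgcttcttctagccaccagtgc
Fzd9: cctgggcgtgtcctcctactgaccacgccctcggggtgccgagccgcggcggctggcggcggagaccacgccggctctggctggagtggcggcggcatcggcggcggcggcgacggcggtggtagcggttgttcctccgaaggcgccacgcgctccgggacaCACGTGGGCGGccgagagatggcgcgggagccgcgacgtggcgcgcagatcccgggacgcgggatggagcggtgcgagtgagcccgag
Fzd10: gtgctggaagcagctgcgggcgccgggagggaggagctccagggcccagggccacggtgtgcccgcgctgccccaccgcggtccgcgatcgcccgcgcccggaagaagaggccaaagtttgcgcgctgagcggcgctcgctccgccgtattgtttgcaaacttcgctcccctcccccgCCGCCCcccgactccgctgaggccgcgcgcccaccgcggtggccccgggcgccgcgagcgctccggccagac
Fzd5: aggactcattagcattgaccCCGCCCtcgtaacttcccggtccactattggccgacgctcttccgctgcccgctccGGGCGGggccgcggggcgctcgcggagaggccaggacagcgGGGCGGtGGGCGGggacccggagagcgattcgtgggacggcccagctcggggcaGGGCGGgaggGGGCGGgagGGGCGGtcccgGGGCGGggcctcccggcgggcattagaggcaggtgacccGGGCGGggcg

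The 3 genes highest in tumour 4 or 6, of which Fzd10 was below background throughout, held no Tcf/Lef core in this window. Of all windows, 3.21% hold this core. Fzd7 held 1 Sox core and 6 GC boxes, Fzd9 1 Myc E-box that overlaps its single GC box by a base, and Fzd10 1 GC box. Fzd5 held 9 GC boxes and none of the other motifs. Windows outside chromosome 18 were used for 25 of the 37 members, 28 windows in all. Of these, 20 held a GC box, against 32.7% of all 32851 windows, 5 a Sox core (16.5%), 2 a Tcf/Lef core (3.21%) and 2 a Myc E-box (6.02%). The median GC content was 69.4% in the members' windows, against 52.4% in all windows. A match is a stretch of letters and no measurement of binding.

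Of the secreted Frizzled-related proteins, Sfrp1, Sfrp2 and Sfrp4 were above background and all were highest in tumour 6. Sfrp2, a Wnt-binding protein of mesenchyme and neural precursors, was at 7.58, 7.67, 6.85, 6.78, 7.0, 8.33, 7.99 and 6.65 in tumours 1 to 8, and stood 1.77 ± 0.19 above background (limma, adjusted p = 3.75e-06). Its high values were in tumours 6, 7, 2 and 1. A second Sfrp2 probe set read a mean of 5.47 with an SD of 0.23, highest in tumour 7 and lowest in tumour 8, and the SD of the mean of both was 0.41, against 0.62 for the higher one. Sfrp1 was at 7.49 and 7.04 in tumours 6 and 4 and at 6.15 to 6.71 in the others (1.02 ± 0.14 above background, limma, adjusted p = 2.26e-05). Sfrp4 ran from 5.65 in tumour 8 to 7.61 in tumour 6, with 6.24 to 6.99 in the others (1.07 ± 0.19 above background, limma, adjusted p = 0.000221). Tumour 8 was the lowest of the 8 for all 3 of these genes. Sfrp5 was not above background (5.21 ± 0.33, SD, n = 8) and was highest in tumour 4 (5.82).

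Of the Dickkopf genes only Dkk3 was above background. Dkk3, a divergent member of the family that does not bind Lrp6, was at 7.38 in tumour 4 and between 6.36 and 6.70 in the others (1.02 ± 0.10 above background, limma, adjusted p = 9.56e-07). Tumour 4 lay 0.88 above the mean of the others, and without it the SD was 0.11, against 0.33 with it. The Lrp-binding antagonists Dkk1, Dkk2 and Dkk4 averaged 5.40 ± 0.15, 5.09 ± 0.28 and 5.49 ± 0.25 (SD, n = 8), each below background. Dkk4 was lowest in tumour 3 (4.95), where the other tumours ran from 5.43 to 5.80.

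The genes around the members were read from 6 lists of the pathway. Of all genes, 57.3% were above background. Both genes of Wnt secretion were above background: Porcn, which acylates Wnts, with a median of 8.19, and Wls, which carries them to the cell surface, with a median of 6.58 and its highest values in tumours 4 (7.61) and 6 (7.11). Of 6 co-receptors 5 were above background. Lrp5 was at 9.04 and 8.60 in tumours 6 and 4, at 8.22 and 7.96 in tumours 3 and 5, and at 6.84 to 7.19 in the others, while Lrp6 was even at 8.99 to 9.51. Ror1, Ror2 and Ryk had medians of 6.15, 7.21 and 9.90. Ptk7, a co-receptor of the planar polarity branch, was not called over the group (limma, adjusted p = 0.0849), with 7.83 and 6.79 in tumours 6 and 4 and 5.45 to 6.11 elsewhere.

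Of 15 other secreted modulators and R-spondin receptors, 8 were above background, against 57.3% of all genes. An SD of at least 0.5 was seen for 6, namely Frzb, Wif1, Kremen1, Draxin, Ndp and Rspo2, against 7.52% of all genes. Kremen1, a Dkk receptor, was highest in tumours 6 and 4 (9.05 and 8.41), as was Frzb, a further Frizzled-related inhibitor, in tumours 4 and 6 (7.61 and 6.53, against 3.91 to 4.85 elsewhere). Wif1, which binds Wnts, was at 7.97 in tumour 4 and at 5.46 to 6.14 elsewhere. Ndp, which encodes norrin, was at 8.58 in tumour 8 and at 4.83 to 6.17 elsewhere, and Draxin, an axon repellent that also inhibits Wnt signalling, was at 8.46 in the same tumour and at 5.96 to 7.78 elsewhere. Fzd5 had its highest level in tumour 8 as well, while Fzd4, the norrin receptor, was at 6.86 there. Rspo2, which enhances Wnt signalling through Lgr receptors, was lowest in tumours 6 and 8 (5.58 and 6.04, against 6.74 to 7.48), and the R-spondin receptor Lgr4 ran from 8.25 to 8.98. Frzb, Wif1, Sost, Sostdc1, Dkkl1, Ndp and Rspo3 were not called over the group.

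All 19 measured genes of the beta-catenin branch were above background, with Ctnnb1, beta-catenin itself, at 10.17 to 10.80. The largest SDs among them were those of the Tcf factors Tcf7l2 (0.59, highest in tumour 2 at 8.76) and Tcf7l1 (0.46, highest in tumour 4 at 6.97), of Pygo1 (0.41) and of Dvl2 (0.34). Csnk1d, Gsk3a and the target Tcf7 are not analysed here. Of 11 planar polarity genes 8 were above background, against 57.3% of all genes. Among these 8, Celsr1 had the largest SD (0.73, at 8.05 in tumour 4 and 5.78 to 7.03 elsewhere), followed by Prickle2, Daam1 and Prickle1 (SD 0.38, 0.36 and 0.27). Vangl1, Prickle3 and Daam2 were not called, and Daam2 was at 7.75 in tumour 4 and 5.25 to 6.52 elsewhere.

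Target genes of beta-catenin differed in their patterns. Axin2, the feedback inhibitor induced in most tissues with Wnt signalling, was even at 6.70 to 6.89 (6.82 ± 0.06, SD, n = 8). Lef1, a target and a partner of beta-catenin, reached 10.07 and 7.77 in tumours 6 and 4, with 5.56 to 6.57 elsewhere, and passed the detection test narrowly (limma, adjusted p = 0.0499). Apcdd1, an inhibitor at the cell surface, was at 9.0 and 7.25 in tumours 4 and 6 and at 5.84 to 6.58 elsewhere. Nkd2 was highest in tumour 6 (8.72) and Nkd1 in tumour 4 (7.16). Lgr5, an R-spondin receptor, was highest in tumour 2 (9.67) and lowest in tumour 5 (8.11). In all, 9 of 11 measured targets were above background, against 57.3% of all genes, and Nkd1 and Notum were not. The mean of the 9, each centred, reached 0.47 and 0.75 in tumours 4 and 6, where the others lay at -0.30 to -0.13. Lef1, called narrowly and high in those 2 tumours, counts in this mean, as does Apcdd1. The mean therefore partly restates their values. Among the other targets in it, Axin2 was even, and Sp5 and Lgr5 were highest in tumours 5 and 2.

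**Figure D4:**
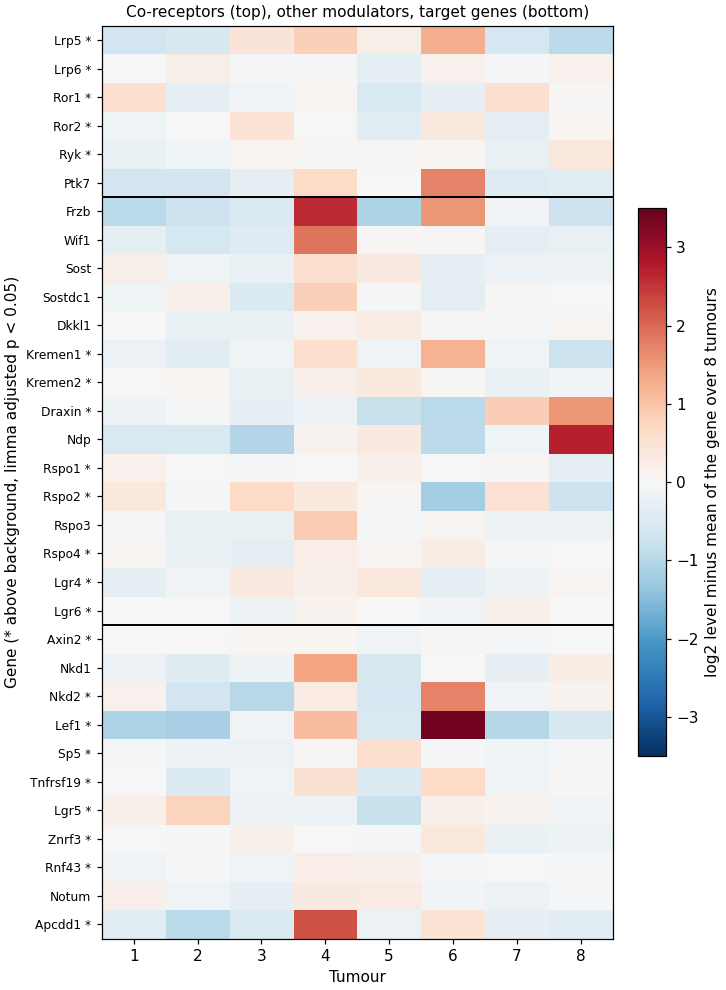
Log2 level minus the mean of the gene over the 8 tumours, for 6 co-receptors (top), 15 other modulators and 11 target genes (bottom), with an asterisk for genes above background by limma. Frzb, Wif1 and Apcdd1 stand out in tumour 4, Lef1, Nkd2, Ptk7 and Lrp5 in tumour 6 and Ndp and Draxin in tumour 8, while the Axin2 row is nearly blank.

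Over the 5 marker scores and Axin2 on which the tumours formed no separate clusters, no relation with a member passed the test. The 16 members above background were regressed on the scores of fibroblast and pericyte, endothelial, macrophage, glial and crest progenitor and skeletal muscle markers and on Axin2, 96 relations in all, each fitted over the whole table. limma called 0 of the 96, and 14 had an unadjusted p under 0.05, where 3.95% to 10.5% of all genes had one per predictor. Of all genes it called 0% for the fibroblast score, 0.018% for the endothelial, 0.00451% for the macrophage, 0.739% for the glial, 0.0271% for the muscle score and 0% for Axin2. On simulated data the test found 33% of slopes of 1, so the count of 0 does not show that relations are absent. Axin2 varied so little (SD 0.06) that a relation with it could hardly be called. The sympathoadrenal and target scores set tumours 6, or 4 and 6, apart from the rest, so no correlation is given for them. Their fits rest on that separation. For the target score limma called Fzd9 (adjusted p = 0.0122) and Sfrp1 (adjusted p = 0.0498), 2 of 16 members, against 1.15% of all genes. Sfrp1 missed the threshold whichever tumour was left out (adjusted p of 0.0612 to 0.414), and Fzd9 was not called without tumour 3, 5, 6, 7 or 8 (adjusted p of 0.113, 0.114, 0.246, 0.185 and 0.146). In each of these runs the score was rebuilt from the targets called there, so its genes could change too. The slope of Fzd9 was 1.94 over all 8 tumours, and 2.83, 2.75, 1.13, 2.56 and 2.54 without tumours 3, 5, 6, 7 and 8. These runs therefore do not show the part of the omitted tumour alone. For the sympathoadrenal score limma called 0 of 16, against 0.0406% of all genes, with the lowest adjusted p of 0.0563 for Fzd9.

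Of the 14, 4 are given in full as examples, chosen after their values were seen. Fzd4 had Pearson's r of 0.75 with the endothelial score (exact permutation p = 0.0346, two-sided) and Spearman's rho of 0.76 (exact permutation p = 0.0368). Without tumours 1 and 4, the 2 farthest from the median score, r was 0.65, and limma's p adjusted over all genes was 0.38. Its r with the macrophage score was 0.81 (exact permutation p = 0.0173), with rho of 0.76 (exact permutation p = 0.0368), r of 0.61 without tumours 3 and 6 and a limma adjusted p of 0.528. Dkk3 had r of 0.77 with the glial score (exact permutation p = 0.0358), rho of 0.57 (exact permutation p = 0.151) and a limma adjusted p of 0.302. This relation rests on tumours 4 and 6, since r was -0.03 without them. Wnt7a had r of -0.89 with the fibroblast score (exact permutation p = 0.00181), rho of -0.83 (exact permutation p = 0.0154), r of -0.67 without tumours 3 and 6 and a limma adjusted p of 0.53. Fzd4 and Wnt7a also had an unadjusted p under 0.05 with other scores, and limma called none of these relations. Fzd4 had r of 0.74 with the glial score (limma adjusted p = 0.362), and 0.47 without tumours 4 and 6. Wnt7a had r of -0.75 with the muscle and -0.71 with the macrophage score (limma adjusted p = 0.75 and 0.657). Without tumours 3 and 6 these were -0.45 and 0.16.

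No relation between the members used as predictors and other members passed it either. With 11 members as predictors in turn, limma called 0 of 165 ordered pairs, and 20 had an unadjusted p under 0.05, where 1.68% to 12.9% of all genes had one per predictor. Of all genes it called 0% for each of Fzd3, Fzd4, Sfrp2, Wnt2b, Wnt5b and Wnt10a, 0.00902% for Fzd1 and Sfrp4, 0.018% for Sfrp1 and 0.0271% for Fzd5 and Wnt7a. Small slopes could be missed here as well. The other 5 members, Dkk3, Fzd9, Wnt3, Wnt9b and Wnt11, had 1 tumour apart and were not used as predictors. Fzd5 and Sfrp4 ran opposite to each other, with r of -0.79 (exact permutation p = 0.0202), rho of -0.71 (exact permutation p = 0.0576) and limma adjusted p of 0.35 and 0.19 in the 2 directions. Without tumours 6 and 8, the farthest from the median of Sfrp4, r was -0.24, and without tumours 1 and 8, the farthest from that of Fzd5, it was -0.90. Fzd1 and Sfrp2 had r of 0.82 (exact permutation p = 0.0115), rho of 0.69 (exact permutation p = 0.0694), limma adjusted p of 0.904 and 0.54 in the 2 directions, and r of 0.37 without tumours 6 and 7.

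Among the members above background the largest SDs were those of Fzd5, Fzd9 and Sfrp2. The 5 genes above background with a pattern most like that of Fzd5 over the 8 tumours were Zfp74, Pcdhb18, Ntng1, Tmem8b and Adcy7, with r of 0.96 to 0.97. All were highest in tumour 8. The limma adjusted p was 0.497 for Zfp74, 0.317 for Tmem8b and 0.568 for Adcy7. Ntng1, an axon guidance and synapse protein anchored to the membrane, ran from 4.57 to 8.93 and had r of 0.96 (exact permutation p = 9.92e-05), rho of 0.93 (exact permutation p = 0.00223), r of 0.97 without the 2 farthest tumours and a limma adjusted p of 0.0223. Pcdhb18, a protocadherin, had r of 0.96 (exact permutation p = 0.000149), rho of 0.90 (exact permutation p = 0.00456), r of 0.86 without the 2 farthest tumours and a limma adjusted p of 0.0461. For Sfrp2 the 5 included Gtpbp3, Wdr24, C230036H16Rik and Gm3317, with r of 0.92 to 0.95 and limma adjusted p of 0.904 or above. These genes were picked for their r out of all genes above background. The exact permutation p-values given for them do not allow for that choice and lend the pairs no support. Fzd9 is left out, since tumour 6 stands apart in it.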

How the data were processed

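Total RNA of each tumour was extracted with Trizol and labelled with biotin for Affymetrix arrays, per the labels' protocols. The deposited values are log2 levels per probe set made by the authors. The submitters' processing notes name RMA and Partek 6.5 without giving their roles. Values of 2.07 to 13.61 showed the log2 scale. Precision is limited by the number of arrays, 8.

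Of 41345 probe sets the platform annotation names 23521 with 1 symbol, which gave 22180 genes. It names 1814 with several, which were not used, and 16010 are unnamed here. The background came from 1440 receptor probe sets. limma 3.58.1 in R 4.3.3 (trend and robust prior) was fitted to all genes for the level minus background and for slopes on a score or a member, with Benjamini-Hochberg adjustment over all genes at 0.05. A score is the mean of the centred list genes above background in the setting that is run. No correlation was given where the largest gap between tumours exceeded 0.5 of the range. Exact permutation tests (two-sided, 40320 pairings) and plots were made in Python 3.11.15 (scipy 1.17.1, matplotlib 3.10.9). The scripts were tested on simulated data, where small slopes were often missed. A limma test of variance could make no calls there and is not reported. No column of another series is in the table.

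The members and lists were chosen with earlier results of these data known. The text names all members, the genes of each pathway list that were not called and up to 4 called ones with the largest SD, defining markers, and the 5 genes most like a member. Further pathway genes, such as Ctnnb1, Lrp6, Ror1, Ror2, Ryk and Axin2, were named after their values were seen. Alternatives were the mean of all probe sets, arrays centred or quantile normalized again, each tumour left out, limma without trend and robust prior, 3 other background levels and the median as score.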

Additional observations from a re-analysis of the deposited data

Results flagged for a closer look

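Of 79 sets of 8 values examined (the members, the pathway genes named by rule and 7 scores), 14 had a highest or lowest tumour whose gap to the nearest other, as a share of the whole range, was above Dixon's 95% critical value of 0.526. For independent, normally distributed values about 1 in 20 such sets would be flagged. How many of all genes pass this value was not counted. The pathway genes were named for a large SD or for not being called, so that rate does not describe them. Of the 14, 6 were members. The share was 0.671 for Dkk3 (tumour 4 high), 0.554 for Fzd9 (tumour 6 high), 0.551 for Wnt11 (tumour 4 high), 0.545 for Wnt3 (tumour 6 low), 0.569 for Dkk4 (tumour 3 low) and 0.543 for Wnt9b (tumour 3 low). Of the pathway genes, tumour 4 was high for Wif1 (0.729), Rspo3 (0.706), Nkd1 (0.574) and Apcdd1 (0.555), tumour 8 for Ndp (0.642) and Vangl1 (0.587), and tumour 6 for Nkd2 (0.535). The sympathoadrenal score was low in tumour 6 (0.584). Tumours 4, 6, 8 and 3 account for these values, and the genes share the same 8 arrays.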

How the results depend on the processing

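The background level decided how many genes were called. Against the 90th percentile of the receptor probe sets 29 members were called, against the median 37 and against the 99th percentile 4, where 16 were called in the main setting. Of the other secreted modulators 15 were called against the median and 2 against the 99th percentile. At the 99th percentile 1 gene of Wnt secretion and 4 target genes were called. Without each tumour in turn, 14 to 17 members were called. Centring, a second quantile normalization, the mean of probe sets and limma without trend and robust prior left 16 members called. The counts of 0 for relations with the 6 scores read and for pairs of members were 0 under every alternative run for them, which says nothing about stability. Tumours 4 and 6 were less far apart from the rest on the target score with arrays centred, quantile normalized again or the median as score (a largest gap of 0.446, 0.472 and 0.436 of the range, against 0.569). There the adjusted p of limma was 0.0278, 0.063 and 0.0444 for Fzd9 and 0.0849, 0.0895 and 0.0664 for Sfrp1. The score was also rebuilt from the targets called in each setting, and the cause was not tested.

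Means relative to background changed sign with the background. At the 99th percentile they were -0.31 for Fzd9, -0.07 for Wnt2b, -0.73 for Wnt3, -0.81 for Wnt5b, -0.82 for Wnt7a, -0.24 for Wnt9b, -0.29 for Wnt10a and -0.57 for Wnt11. At the 90th percentile they were 0.42 for Dkk1, 0.52 for Dkk4, 0.24 for Sfrp5, 0.44 for Wnt1, 0.25 for Wnt2, 0.44 for Wnt3a, 0.51 for Wnt6 and 0.35 for Wnt8a. Against the median they were 1.93 for Dkk1, 1.63 for Dkk2, 2.03 for Dkk4, 1.81 for Fzd2, 1.63 for Fzd8, 0.60 for Fzd10, 1.74 for Sfrp5, 1.94 for Wnt1, 1.75 for Wnt2, 1.94 for Wnt3a, 1.69 for Wnt5a, 2.02 for Wnt6, 1.85 for Wnt8a, 0.68 for Wnt8b, 1.51 for Wnt10b and 1.10 for Wnt16. The subtracted level itself causes these changes.

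The SD of a member moved by more than 1.5 times in 9 of 407 cases: for Fzd5, Fzd9, Dkk3 and Sfrp2 as given above, and without tumour 3 for Dkk4, Wnt3a and Wnt9b (each 0.13), without tumour 6 for Wnt3 (0.18) and without tumour 4 for Wnt11 (0.05). No paired analysis was possible because the labels give 1 group. Levels near background, as those of most Wnt genes, are poorly resolved.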
